A study of Mus musculus with 8 samples.

Results

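Open chromatin of mouse retinal ganglion cells (RGCs) that had received Ezh2 was compared with that of RGCs that had received GFP, both after optic nerve crush (ONC). The comparison used the 6 samples labelled GFP overexpression (3 samples) or Ezh2 overexpression (3 samples), of 8 samples in the series, and the 2 Ezh2-Y726D samples were not used. Adult C57BL/6J mice of both sexes had an intravitreal injection of AAV2 carrying GFP or Ezh2, and ONC was performed 2 weeks later in both groups. RGCs were collected by FACS 3 days after ONC as CD90.2-positive cells free of a dead-cell dye, with 50000 cells in each ATAC-Seq library. Both groups therefore share the virus, the injection and the crush, and differ in the gene carried. Peaks of the 6 lists on chromosomes 1 to 19 that shared at least 1 bp were merged, which gave 170642 regions. All of these were members of the comparison.

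Ezh2 is the catalytic subunit of Polycomb repressive complex 2 (PRC2), which places the H3K27me3 mark on histone H3. Chromatin with this mark is usually compact and its genes silent, and PRC2 is best known for keeping developmental regulators silent in cells that do not use them. ATAC-Seq uses a transposase that cuts DNA where it is not covered by nucleosomes, so that promoters and enhancers in use appear as peaks. Promoters rich in CpG dinucleotides are open in most cell types, whereas enhancers and CpG-poor promoters are open in some cell types only. CD90.2 (Thy1), on which the cells were sorted, is carried by RGCs and in mice also by T cells.

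The GFP lists held 113763, 111036 and 131339 autosomal peaks and the Ezh2 lists 124149, 125373 and 133536. The groups overlapped (two-sided exact permutation p = 0.3, the smallest possible being 0.1), but the mean was 1.076 times higher in Ezh2, so that presence and absence were also counted in lists cut to the length of the shortest. Read depth is unknown because the lists hold no counts. A peak's fold is the deposited enrichment of its summit over the local background of the same library, and its percentile is the rank of that fold among the peaks of its own list. Regions with a peak in all 6 lists correlated more closely within groups (r from 0.893 to 0.903) than between them (0.802 to 0.854) in the ranks of their folds, which is a description across regions. RGC identity genes were open in both groups, with a peak in 88, 85 and 97 of 131 regions near them in GFP and in 99, 104 and 109 in Ezh2. Regions near rod and T cell genes were open too (157 to 167 of 202 and 113 to 142 of 200 in GFP), so peak presence alone did not separate the sorted cells from other cells.

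The start sites of 5 genes whose regions differed between the groups are shown first, as examples. Each line gives the 250 bases before the start site from RefSeq in build GRCm38, read 5′ to 3′ along the gene. Capitals mark the AP-1 motif TGANTCA and the Runx motif TGTGGT on either strand. Klrb1c (the natural killer receptor NK1.1) gained a peak with Ezh2, Cnga1 (the rod cGMP-gated channel) lost one, F2rl2 (a thrombin receptor) rose in rank, and Impg2 (a proteoglycan of the matrix around photoreceptors) and Hspa1a (the inducible chaperone Hsp70) fell in rank.
Klrb1c, chr6:128788642-128788891, minus strand: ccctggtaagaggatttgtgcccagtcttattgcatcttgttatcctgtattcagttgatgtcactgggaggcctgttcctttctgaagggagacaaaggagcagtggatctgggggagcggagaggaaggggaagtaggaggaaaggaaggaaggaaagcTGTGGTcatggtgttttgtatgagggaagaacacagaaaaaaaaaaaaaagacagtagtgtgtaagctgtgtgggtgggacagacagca
Cnga1, chr5:72642753-72643002, minus strand: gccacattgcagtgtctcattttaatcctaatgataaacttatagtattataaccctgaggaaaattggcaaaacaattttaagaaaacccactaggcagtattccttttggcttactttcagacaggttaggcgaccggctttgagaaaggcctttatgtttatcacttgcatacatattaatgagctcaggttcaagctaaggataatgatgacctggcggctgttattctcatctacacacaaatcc
F2rl2, chr13:95696670-95696919, plus strand: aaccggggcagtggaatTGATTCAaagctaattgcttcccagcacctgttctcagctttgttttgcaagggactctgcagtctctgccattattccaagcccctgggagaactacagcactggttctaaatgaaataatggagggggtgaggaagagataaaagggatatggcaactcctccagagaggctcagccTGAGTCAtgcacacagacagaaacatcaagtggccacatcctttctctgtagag
Impg2, chr16:56204063-56204312, plus strand: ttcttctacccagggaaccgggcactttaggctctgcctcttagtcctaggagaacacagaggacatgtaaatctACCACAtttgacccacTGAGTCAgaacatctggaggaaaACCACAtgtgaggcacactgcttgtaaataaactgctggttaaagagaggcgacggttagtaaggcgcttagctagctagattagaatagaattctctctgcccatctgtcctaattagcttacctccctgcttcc
Hspa1a, chr17:34972157-34972406, minus strand: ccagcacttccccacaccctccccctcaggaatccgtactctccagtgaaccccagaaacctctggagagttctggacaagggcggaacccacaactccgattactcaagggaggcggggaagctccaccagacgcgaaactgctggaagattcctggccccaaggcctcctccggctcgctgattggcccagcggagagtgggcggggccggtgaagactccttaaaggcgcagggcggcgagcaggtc
F2rl2 held 2 AP-1 matches, Impg2 held 1 AP-1 and 2 Runx matches, Klrb1c held 1 Runx match, and Cnga1 and Hspa1a held neither in these windows. The same windows of Ifi214, Pvrig and Il21 (gained) and P2ry12 (lost), examined but not shown, held neither motif. The examples shown thus have more matches than the full set examined. The ratio of observed to expected CpG over the 300 bp around the start was 0.07 for Klrb1c, 0.319 for Cnga1, 0.104 for F2rl2 and 0.321 for Impg2, against 0.542 for Hspa1a. Only Hspa1a of these 5 lay above the ratio of 0.4 used below to divide promoters.

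A region was called gained when all 3 Ezh2 lists and no GFP list had a peak in it, and lost in the reverse case. Of 170642 regions, 5099 (2.99%) were gained and 3136 (1.84%) lost. At equal list length, the counts were 4021 and 4178, and the excess of gained regions was not present. Gained and lost regions were weak and narrow, with a median percentile of 31.6 and 32.7 and a median width of 446 and 453 bp. Another 83342 regions had a peak in some lists only and were neither. The remaining 79065 regions were shared by all 6 lists. Folds were ranked within each list and converted to normal scores, whose group means were tested in limma (Benjamini-Hochberg adjusted p under 0.05 over all shared regions). By this test 1916 (2.42%) had a higher rank with Ezh2 and 2194 (2.77%) a lower rank, and 16458 had an unadjusted p under 0.05. The median ratio of mean folds, Ezh2 to GFP, was 1.54 in regions called higher and 0.644 in those called lower. The score difference had a median of -0.004 over all shared regions, and no region with an absolute difference under 0.669 was called. Without GFP replicate 2 the calls fell to 613 higher and 577 lower, and without Ezh2 replicate 3 to 563 higher and 946 lower. Single calls depended on settings and samples too, since 39 of 49 higher and 45 of 55 lower regions that were followed singly lost their call under at least 1 alternative.

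Among shared regions, calls lay away from start sites. A start site (within 1 kb) was found in 5.79% of higher and 4.38% of lower regions, against 17.6% of the shared regions that were not called. Gained and lost regions had one in 4.10% and 3.92%, near the 3.48% of regions with a peak in some lists only, which are the like class for them. Gene bodies held 58.9% of gained and 56.5% of lost regions, beside 59.9% of regions in some lists only. More than 50 kb from any gene lay 4.24% of gained and 7.56% of lost regions, with 6.17% of regions in some lists only between them. Of shared regions, 4.07% of the higher and 6.61% of the lower ones lay there, beside 4.03% of those not called. Read by position, 1.26% of start-site regions were gained and 0.739% lost, whereas 3.32% of regions between genes were gained and 2.07% lost. Among regions far from genes, 216 were gained and 237 lost of 8834, and 4.48% of the shared ones were lower against 2.41% higher. These counts by position are from lists as deposited, whose lengths differ. The shares are descriptions, and differences between them were not tested.

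Called promoters among shared regions were poor in CpG, and so were promoters of regions that not every list held. The ratio of observed to expected CpG was under 0.4 in 81.8% of 99 gained, 77.6% of 67 lost, 67.1% of 73 higher and 71.0% of 62 lower promoters, against 73.0% of 1267 promoters in some lists only, 18.9% of 11844 shared promoters that were not called and 51.0% of all 31363 promoters in the RefSeq table. Among shared promoters under 0.4, 2.11% were higher and 1.89% lower (49 and 44 of 2326). Among the other 9653, 0.249% were higher and 0.186% lower (24 and 18). CpG-rich promoters, the class to which most housekeeping promoters belong, thus had few calls in either direction.

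**Figure D1:**
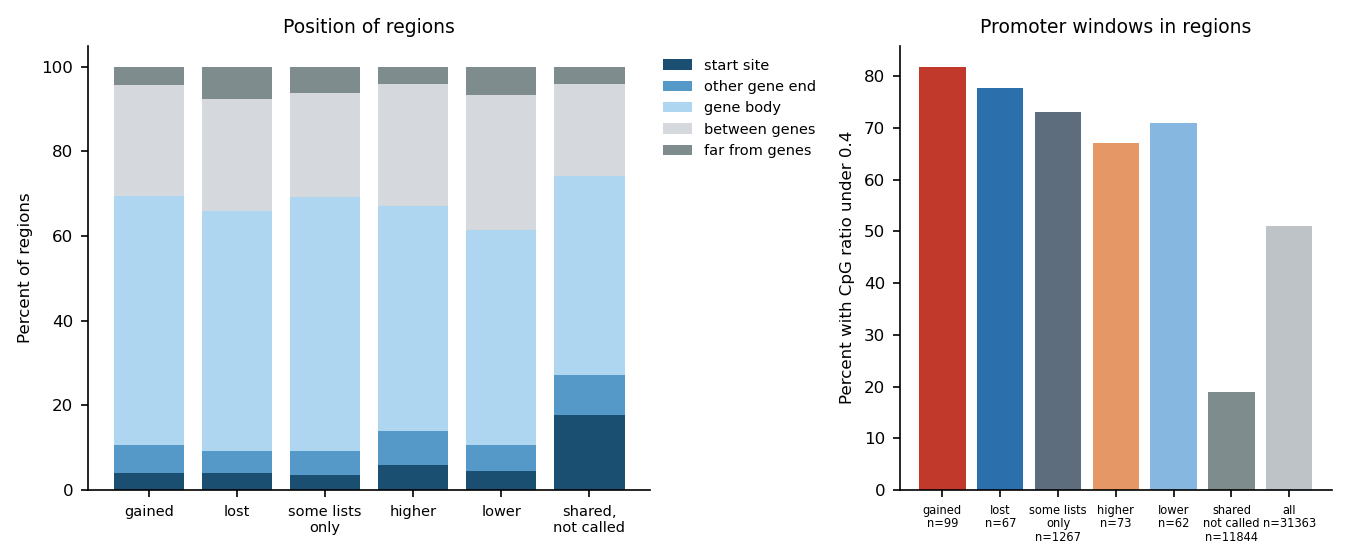
Left, share of regions (percent, y axis) at start sites, other gene ends, gene bodies, between genes and far from genes, for gained and lost regions, regions in some lists only, regions called higher or lower, and shared regions not called. Right, percent of promoter windows of 300 bp with a CpG ratio under 0.4 (n under each bar). Gained and lost regions resemble those in some lists only (start sites 4.10%, 3.92% and 3.48%), and start sites make up 17.6% of shared regions not called.

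Short motifs were counted in the same promoters on both strands. The AP-1 motif was found in 24.7% of higher promoters (18 of 73), 13.1% of gained, 12.9% of lower and 10.4% of lost ones. It was found in 10.7% of promoters in some lists only, in 5.28% of shared promoters not called, in 10.5% of those that were also CpG-poor, and in 7.85% of all promoters. The Runx motif was found in 33.3% of gained (33 of 99), 24.7% of higher, 21.0% of lower and 20.9% of lost promoters, against 21.6% of promoters in some lists only, 21.8% of CpG-poor shared promoters not called and 16.7% of all. The E-box CATCTG was found in 25.4% of lost promoters, in 23.2% of those in some lists only and in 21.8% of the CpG-poor shared ones. The GC box GGGCGG followed CpG content, with 17.2% of gained promoters, 61.2% of shared ones not called and 21.1% of the CpG-poor among these. T-box, Crx/Otx, Ets and CCAAT motifs were counted too. The CCAAT box was found in 22.2% of gained promoters, 31.4% of those in some lists only and 34.8% of the CpG-poor shared ones. It was found in 32.8% of lost, 37.0% of higher and 37.1% of lower promoters. The T-box motif was found in 8.08% of gained promoters and 5.29% of those in some lists only. Motif matches are a description of the letters in these windows, and no motif was tested.

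The Ezh2 gene itself (chr6:47530274-47595270) was examined in every list. Its start-site region (chr6:47594045-47595712) had folds of 9.72, 10.6 and 8.96 in GFP and 9.52, 9.37 and 9.16 in Ezh2. The groups overlapped there, with a score difference of -0.089 ± 0.171 (SE, limma adjusted p = 0.829). Of 13 regions over the gene, 3 were gained, all inside the gene body. The strongest (chr6:47545596-47545992) had folds of 5.86, 7.15 and 6.54 in the Ezh2 lists. Those at chr6:47540594-47540918 and chr6:47559902-47560158 had folds of 4.40, 4.39 and 5.89 and of 3.88, 3.36 and 3.25. A body region shared by all lists (chr6:47560890-47561895) had folds of 3.86, 3.97 and 4.09 in GFP and 4.95, 4.87 and 5.16 in Ezh2 (difference 0.614 ± 0.160, adjusted p = 0.0638). The endogenous gene and Ezh2 sequence carried by the virus cannot be told apart in these lists.

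Regions gained at gene ends with the highest percentiles included 3 genes of the immune system. Ifi214, an interferon-inducible gene, gained a start-site region (chr1:173535568-173536212) with folds of 7.57, 6.46 and 7.85. Pvrig, an inhibitory receptor of T and natural killer cells, gained one (chr5:138341587-138342267) with folds of 8.01, 5.78 and 5.45. Il2ra, the alpha chain of the interleukin 2 receptor, gained one (chr2:11692947-11693478) with folds of 6.84, 5.54 and 6.54. The other two were at Ide, which encodes insulin-degrading enzyme (8.22, 6.05 and 7.81), and Rab11fip4, an effector of the recycling GTPase Rab11 (6.60, 5.57 and 5.12). At any position the strongest gained regions lay 292559 bp from Gm52008, in Lpo (lactoperoxidase) and in Mynn (a zinc finger protein), with folds from 7.85 to 10.0. GFP lists had no peak in any of these, by the rule, and a missing peak has no fold.

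Lost regions at gene ends were of mixed function. Pinx1, an inhibitor of telomerase, lost a region (chr14:63919787-63920483) with folds of 6.88, 6.78 and 5.23 in GFP. B4galt1 (a galactosyltransferase), Gm28710, Lrrc57 and Abca6 (a lipid transporter of the ABC family) followed, with GFP folds between 4.61 and 8.48. At any position the strongest was 11861 bp from Sema5b, an axon guidance semaphorin (chr16:35676122-35676523), with folds of 10.1, 9.22 and 9.29. Regions 23989 bp from Filip1 and 14839 bp from Gm38656 had GFP folds from 7.39 to 10.4.

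Among shared regions at gene ends, Btla, an inhibitory receptor of lymphocytes, rose most (chr16:45251696-45252578). Its folds were 3.77, 3.26 and 3.80 in GFP and 8.55, 9.09 and 8.98 in Ezh2. The groups were well apart, with a score difference of 2.30 ± 0.203 (SE, n = 3 per group, adjusted p = 0.00798). F2rl2 had folds of 3.53, 3.53 and 5.91 in GFP and 10.0, 9.54 and 9.68 in Ezh2 (2.12 ± 0.336, adjusted p = 0.0148), and its adjusted p was 0.0508 without GFP replicate 2. Myo5b (a motor of vesicle recycling), Lcn4 (a lipocalin) and Eloc (elongin C) rose by 1.90, 1.78 and 1.76, and their calls were lost in 7 of 11, 7 of 12 and 5 of 11 alternatives. All 3 were lost without GFP replicate 1 or Ezh2 replicate 1. At any position, the region 26102 bp from Tet2, an enzyme that oxidises methylated cytosine, rose most (chr3:133436785-133437575). Its folds were 3.30, 3.80 and 5.07 in GFP and 10.5, 11.5 and 12 in Ezh2 (2.65 ± 0.287, adjusted p = 0.00798). The next were 355639 bp from Cblb, a ubiquitin ligase that restrains T cell activation, and 22219 bp from Fam3c, a secreted factor (2.64 and 2.49). Btla, Tet2 and Fam3c kept their calls in the 11 alternatives that tested them, and Cblb in 10.

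Among shared regions called lower, Hspa1a stood first, 4193 bp from the gene (chr17:34964419-34965166). Its folds were 9.25, 10.3 and 8.94 in GFP and 3.34, 4.55 and 2.17 in Ezh2 (-2.84 ± 0.454, adjusted p = 0.0151). The call was lost in 4 alternatives, with an adjusted p of 0.0557 without GFP replicate 2, 0.0573 without GFP replicate 3 and 0.0887 when ranked by −log10 p. The region 9779 bp from Cldn23, a claudin of tight junctions, had folds of 11.3, 11.5 and 10.6 in GFP and 3.91, 4.15 and 3.92 in Ezh2 (-2.53 ± 0.167, adjusted p = 0.00798). Its call was kept in the 11 alternatives that tested it. A region in Cnga1 (chr5:72608069-72608897) had folds of 9.43, 10.7 and 10.9 in GFP and 4.40, 4.85 and 2.62 in Ezh2 (-2.51 ± 0.396, adjusted p = 0.0147). Its call was lost without GFP replicate 2 (0.0524) and without GFP replicate 3 (0.0616). At gene ends Trp53tg5, Krtap16-3 (a hair keratin-associated protein), Hspa14 (a ribosome-bound member of the Hsp70 family) and Impg2 were lower, with differences from -1.97 to -1.59. Impg2 had folds of 8.47, 11.4 and 11 in GFP and 4.88, 6.00 and 5.01 in Ezh2.

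**Figure D2:**
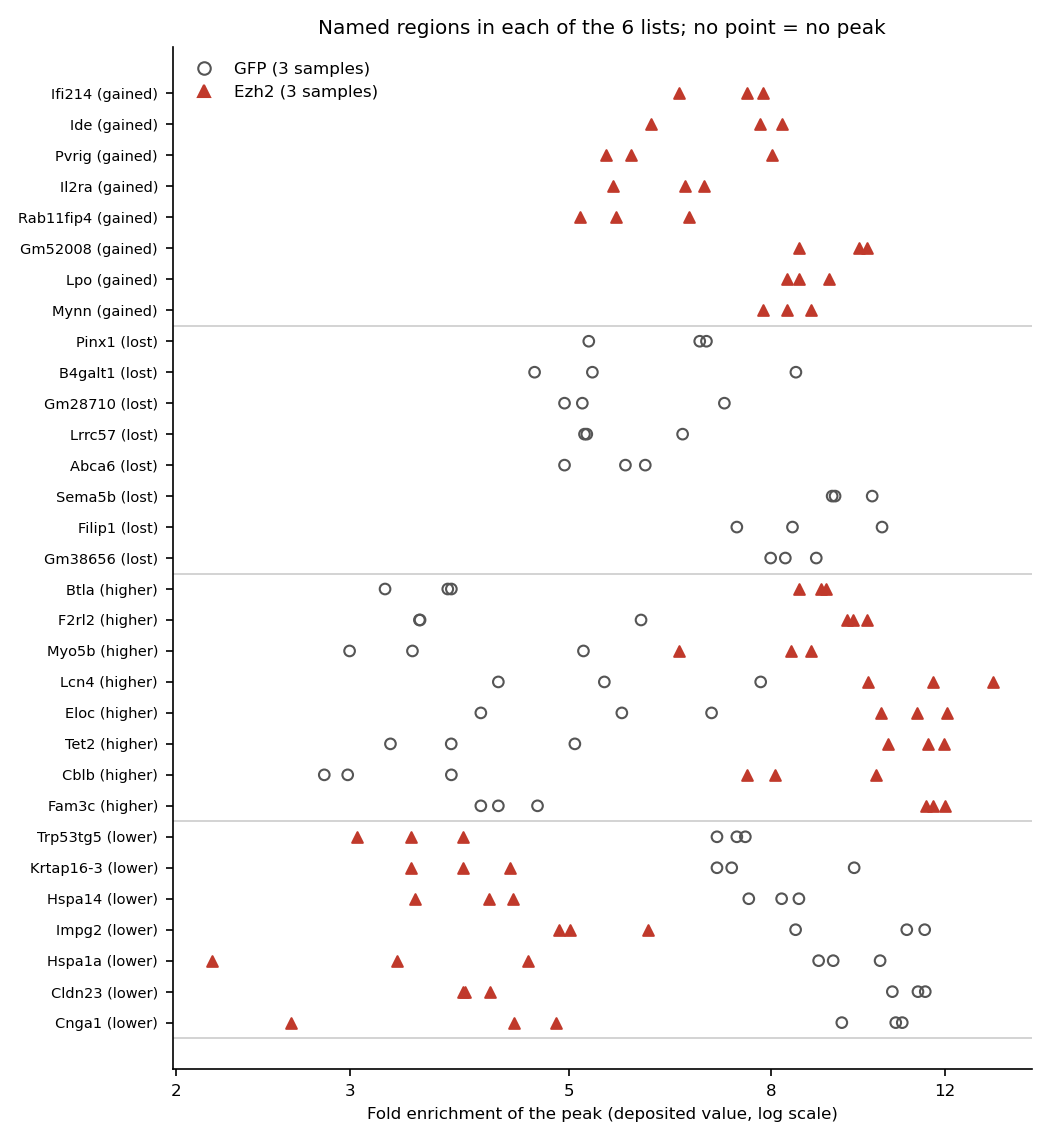
Deposited fold (x axis, log scale) of the regions described above in each of 3 GFP (circles) and 3 Ezh2 (triangles) lists, where a missing point is a list without a peak. Regions called higher or lower do not overlap between groups, as at Btla (3.26 to 3.80 against 8.55 to 9.09).

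Genes were then grouped by function in 38 lists, and regions within 5 kb of a listed gene were counted. Over all regions within 5 kb of a protein-coding gene, 2.88% were gained and 1.66% lost, and of the shared ones 2.13% were higher and 2.23% lower. Each list is read beside these percentages, without a test of the list.

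Cytotoxic and natural killer genes and T cell genes had the largest shares of gained regions in lists as deposited. Near cytotoxic and natural killer genes, 9 of 84 regions were gained (10.7%) and none was lost. With lists of equal length 9 were gained and 2 lost. The gained regions lay at Il18rap (the accessory chain of the interleukin 18 receptor, 2 regions), Klrk1 (the activating receptor NKG2D, 2 regions), Klrb1c, Fasl (the death ligand of cytotoxic cells), Cst7 (a cystatin of cytotoxic granules), Ifng (interferon gamma) and Ccl5 (a chemokine). At Klrk1 the stronger one (chr6:129627337-129627816) had folds of 5.62, 5.31 and 4.58. Of 32 shared regions, 3 were higher and 1 lower. A region in Il12rb2, a chain of the interleukin 12 receptor, had folds of 7.54, 5.97 and 7.39 in GFP and 11.7, 10.5 and 11.7 in Ezh2 (1.17 ± 0.219, adjusted p = 0.0234). Its adjusted p rose to between 0.0636 and 0.0723 without GFP replicate 2 or 3 or Ezh2 replicate 1 or 3. Tbx21, which encodes the transcription factor T-bet, and Gzmk, a granzyme, also had a higher region, and Il2rb, a chain of the interleukin 2 receptor, had the lower one (-0.996). Gzmk lost its call in 7 of 12 alternatives and Il2rb in 8 of 12, both without GFP replicate 1 or 2 or Ezh2 replicate 2 or 3.

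Near T cell genes, 16 of 200 regions were gained (8.0%) and 5 lost (2.50%), and with lists of equal length 11 and 2. Of the gained regions 5 lay in Themis, a regulator of T cell receptor signals during thymocyte selection, the strongest (chr10:28694933-28695412) with folds of 5.37, 5.96 and 6.47. Others lay at Cd247 and Zap70, a chain and a kinase of the T cell receptor complex, Cd28, Cd2, Lck, Tcf7, Bcl11b, Cd8a, Cd8b1 and Cd6. The shared regions went the other way, with 3 higher and 7 lower of 93 and a median difference of -0.21. A region in Cd4, the coreceptor of helper T cells, had folds of 9.12, 8.31 and 8.70 in GFP and 3.75, 5.54 and 4.27 in Ezh2 (-1.66 ± 0.269, adjusted p = 0.0157), and its adjusted p was 0.0515 without GFP replicate 1, 0.0580 without GFP replicate 3 and 0.0984 when ranked by −log10 p. A region in Cd6, a surface receptor of T cells, had folds of 4.53, 6.32 and 5.07 in GFP and 2.71, 2.79 and 3.11 in Ezh2 (-1.77 ± 0.244, adjusted p = 0.0104), and 0.0673 when ranked by −log10 p. Regions in Cd5 and Bcl11b and at ends of Lck were lower as well. Higher regions lay at the ends of Icos, a costimulatory receptor, and Cd8b1, a chain of the CD8 coreceptor, among others. T cell genes thus held regions with a new peak and shared regions of lower rank side by side, also within Cd6, Lck and Bcl11b.

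The number of regions with a peak in each list was counted too. Gained and lost regions enter these numbers by their rule, so the numbers are not separate support for those calls. With 3 samples per group no list could reach a two-sided exact permutation p under 0.1, and the lists were not tested. If the group labels carried no information, each list would still have a probability of 0.1 of groups without overlap. All lists use the same 6 samples and are not independent, so counts of lists without overlap are a description. Near T cell genes 113, 120 and 142 regions had a peak in GFP and 155, 161 and 169 in Ezh2. Near cytotoxic and natural killer genes the numbers were 41, 43 and 52 in GFP and 67, 64 and 74 in Ezh2. All Ezh2 lists stood above all GFP lists in both, with a ratio of means of 1.29 and 1.51, beside 1.076 for all autosomal peaks. Groups did not overlap in 9 of the 38 gene lists, of which 8 were higher in Ezh2 and 1 lower. The other 6 that were higher were those of Jak-Stat (149, 146 and 171 against 180, 184 and 190), Toll-like receptors and chemokines (66, 66 and 82 against 87, 86 and 92), interferon response (81, 73 and 89 against 93, 96 and 105), AP-1 (53, 53 and 55 against 59, 59 and 63), Hox (25, 28 and 30 against 37, 33 and 38) and RGC identity genes. With lists of equal length 10 gene lists were higher without overlap and 9 lower. The 9 lower ones were the developmental factor, Wnt, semaphorin, ephrin, voltage-gated channel, rod and cone, Müller glia, amacrine and horizontal, and neurotrophin lists. The T cell list then held 113, 121 and 126 against 142, 152 and 148 regions. The cytotoxic and natural killer list held 41, 43 and 47 against 59, 60 and 61. RGC identity genes then overlapped, with 86, 85 and 87 against 86, 97 and 95. T cells carry the sorting antigen CD90.2, and the part of T or natural killer cells among the sorted cells in these differences was not tested. More cells of a type and more open chromatin per cell cannot be told apart in bulk lists.

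**Figure D3:**
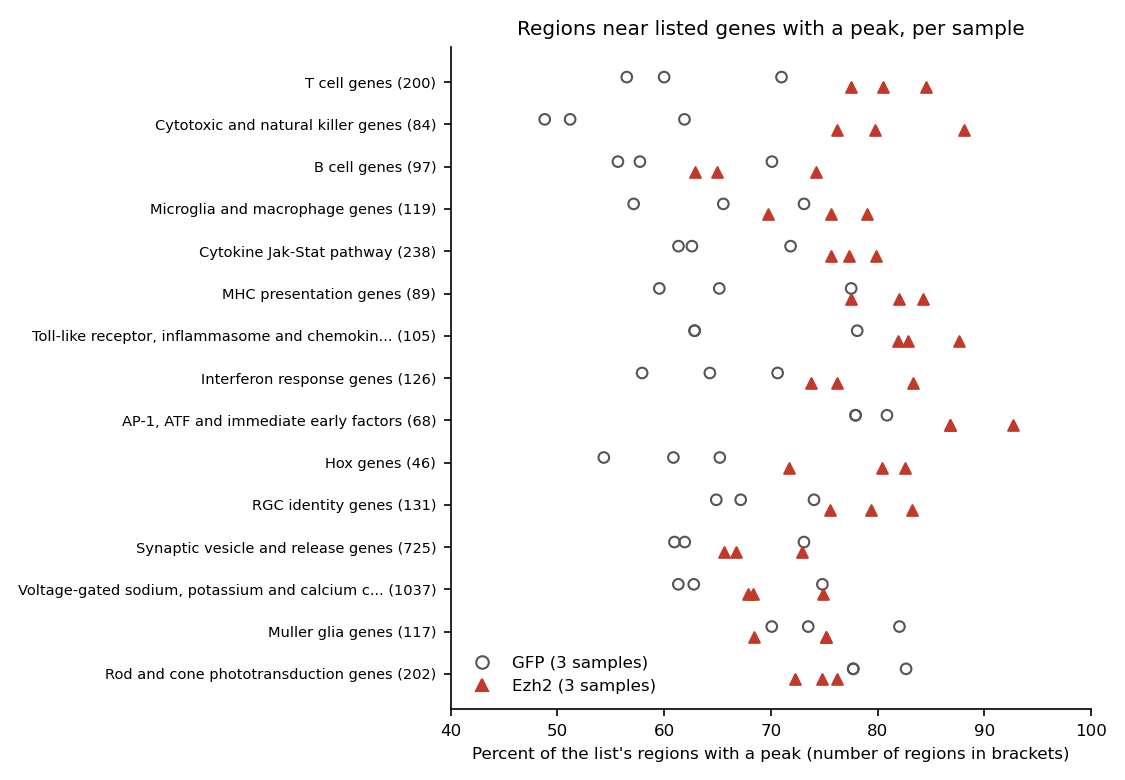
Percent of the regions within 5 kb of a list's genes that had a peak (x axis) in each GFP (circles) and Ezh2 (triangles) list, for 15 of the 38 gene lists, with the number of regions in brackets. Lists are as deposited, so their lengths differ. Cytotoxic and natural killer genes stand furthest apart (41 to 52 against 64 to 74 of 84 regions). Rod and cone genes are the only list plotted with all Ezh2 samples to the left. At equal length this also holds for the plotted Müller glia and voltage-gated channel genes.

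Other immune lists had smaller shares of gained regions in lists as deposited. Near B cell genes 3 of 97 regions were gained and none lost, and Pou2af1, a coactivator of B cells, had a higher region (folds 4.94, 4.61 and 4.64 in GFP, 9.53, 8.54 and 9.16 in Ezh2, 1.55 ± 0.178, adjusted p = 0.00798). Near MHC presentation genes 6 of 89 were gained and none lost, of which 3 in Ciita, the master regulator of MHC class II, but 1 and 0 with lists of equal length. Microglia and macrophage genes had 3 gained and 1 lost of 119 regions, the lost one at the start site of P2ry12, the purinergic receptor of resting microglia (folds 3.44, 4.71 and 4.24 in GFP). Among their 57 shared regions, Itgam (the integrin CD11b) and Trem2 each had a higher region (1.79 and 1.39) and Spi1 (the transcription factor PU.1) and Mertk (a phagocytic receptor) each a lower one (-1.03 and -1.01). The call at Itgam was kept in the 10 alternatives that tested it, whereas Trem2, Spi1 and Mertk lost theirs in several, all 3 without GFP replicate 2 or 3. Interferon response genes had 3 gained and none lost of 126, and 1 higher and 3 lower of 64. Toll-like receptor, inflammasome and chemokine genes had 2 gained of 105, 1 of them in Nfkb1. With lists of equal length they had 6 of 97, a share near the 11 of 184 of T cell genes. Complement genes had 1 lost region of 60.

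Rod and cone phototransduction genes showed the opposite pattern to T cell genes. Of their 202 regions, 3 were gained (1.49%) and 7 lost (3.47%), and with lists of equal length 3 and 10. Peaks were present in 157, 157 and 167 regions in GFP and in 146, 154 and 151 in Ezh2, without overlap. Of 119 shared regions 12 were higher (10.1%) and 2 lower (1.68%), with a median difference of 0.14, and with lists of equal length 12 and 1. A region in Sag, which encodes rod arrestin, had folds of 3.69, 3.46 and 3.68 in GFP and 6.74, 6.74 and 6.30 in Ezh2 (1.59 ± 0.170, adjusted p = 0.00798). A region in Gnat1, the alpha subunit of rod transducin, had folds of 3.07, 3.51 and 4.19 in GFP and 6.98, 6.97 and 6.62 in Ezh2 (1.75 ± 0.219, adjusted p = 0.00901), and 0.0580 when ranked by −log10 p. The same region lies within 5 kb of Sema3f. Nrl (the transcription factor that specifies rods), Pde6b (rod phosphodiesterase), Grk1 (a photoreceptor kinase), Cabp4 (a calcium sensor of photoreceptor synapses) and Guca1a with Guca1b (activators of guanylate cyclase) had higher regions as well. Cnga1 held all 3 kinds of change other than a gain, with a higher region near its start, 2 lost regions around another start site and the lower region described above. Lost regions also lay at Pde6b, Nr2e3, Rbp3 and Pde6c. The part of rods among the sorted cells in these values was not tested.

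RGC identity genes changed little. Of 131 regions 3 were gained and 1 lost, and of 71 shared ones none was higher and 1 lower. The lower one lay in Ebf3, a transcription factor of RGC subtypes (chr7:137221390-137222343), with folds of 6.53, 6.78 and 6.65 in GFP and 4.15, 3.92 and 2.83 in Ezh2 (-1.64 ± 0.267, adjusted p = 0.0157). Its adjusted p was 0.0551 without GFP replicate 2 and 0.0568 without GFP replicate 3. Gained regions lay near Opn4 (melanopsin), Nrn1 (neuritin) and Rbpms (a pan-RGC marker), which also held the lost one. At equal length no region was gained and 1 was lost. Other retinal types had few calls among shared regions. Müller glia genes had 2 gained and 3 lost of 117, with a higher region in Gfap (1.18, and not called without any 1 sample other than GFP replicate 1). Bipolar cell genes had 5 gained and 4 lost of 237 and 3 lower of 103. Amacrine and horizontal cell genes had 3 gained and 6 lost of 323 and 5 lower of 134, all in 1 gene, Dab1. At equal length gained and lost regions numbered 2 and 5 near Müller glia genes, 4 and 9 near bipolar cell genes, and 4 and 9 near amacrine and horizontal cell genes. Regions with a peak were then fewer in all Ezh2 lists than in all GFP lists for Müller glia (ratio of means 0.906) and amacrine and horizontal cell genes (0.878), as for rod and cone genes (0.895), but not for bipolar cell genes (0.998). Astrocyte and oligodendrocyte genes had 2 gained of 84 and 3 higher and 1 lower of 43. Endothelial and pericyte genes had 1 higher and 4 lower of 49 shared regions, the lower ones in Eng, Flt1, Pecam1 and Erg, but 2 and 1 with lists of equal length. Flt1 lost its call in 8 of 10 alternatives and Erg its lower call in 1, both without GFP replicate 2.

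**Figure D4:**
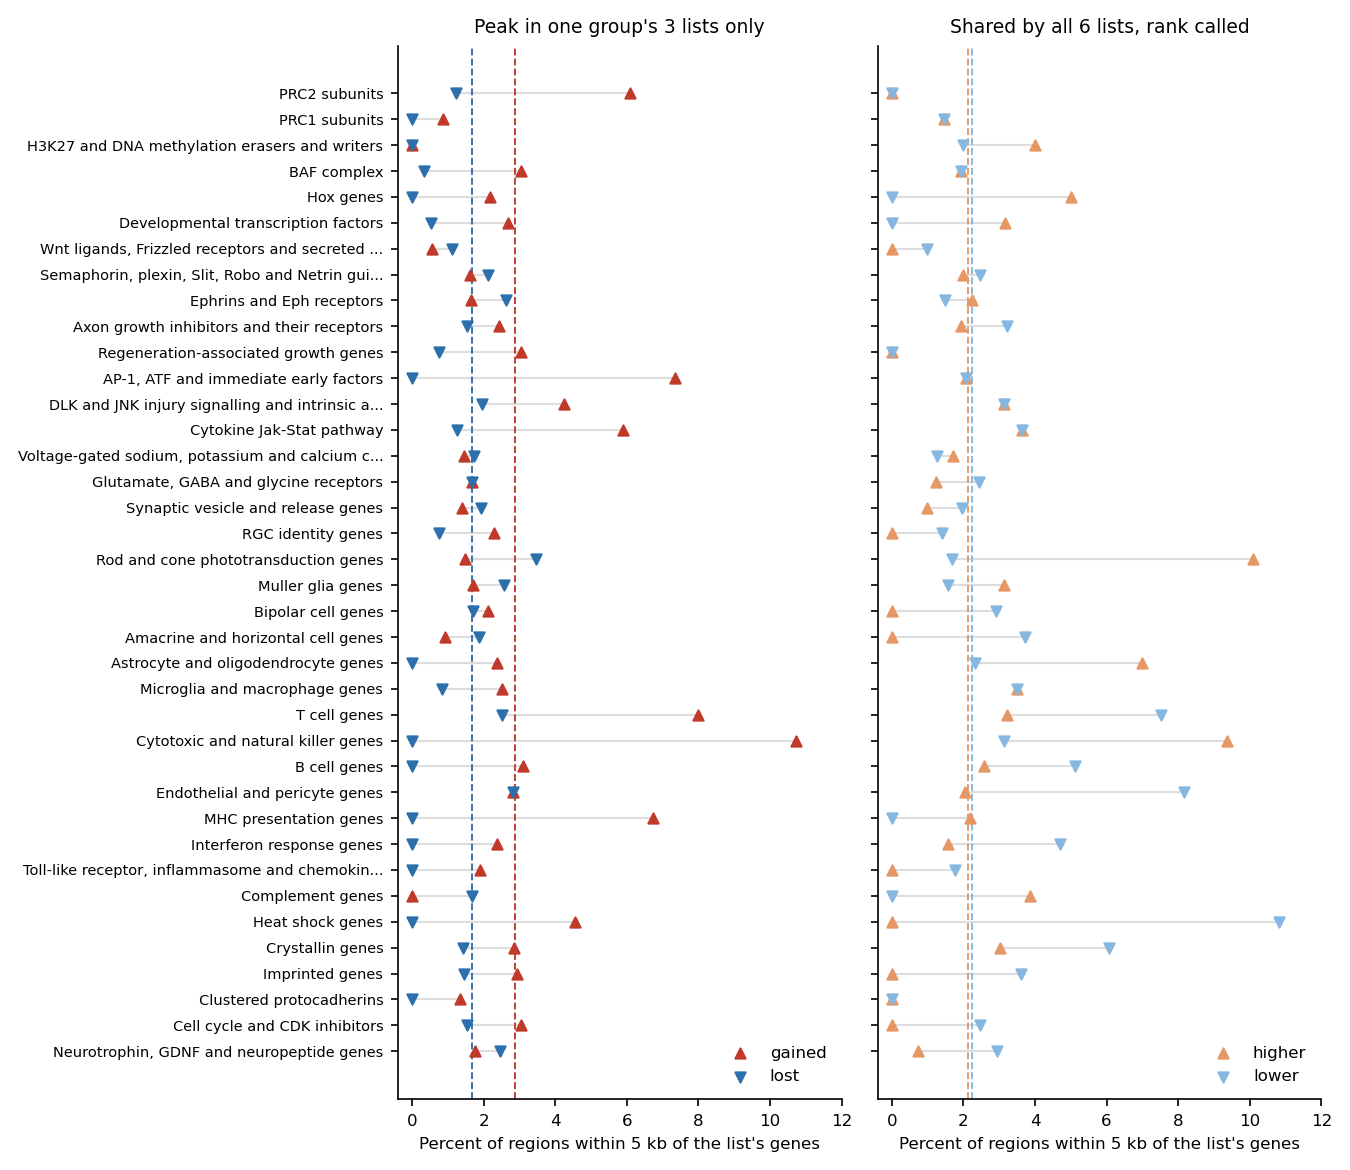
Percent of regions within 5 kb of each list's genes that were gained or lost (left) and percent of the shared ones that were ranked higher or lower in Ezh2 (right), for 38 gene lists, with dashed lines at the percentages over all regions within 5 kb of a protein-coding gene. Cytotoxic and natural killer genes have the largest gained share (10.7%), rod and cone genes the largest higher share (10.1%), and heat shock genes the largest lower share (10.8%).

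The lower calls near the listed heat shock genes lay at 1 locus. Of 37 shared regions 4 were lower (10.8%) and none higher, with a median difference of -0.27, and with lists of equal length 3 were lower. All 4 lay in the cluster of Hspa1b, Hspa1a and Hspa1l on chromosome 17. The lower region at the end of Hspa14 on chromosome 2, described above, is not among these 4. A start-site region of Hspa1b (chr17:34951816-34953097) had folds of 6.65, 8.37 and 7.22 in GFP and 5.27, 5.18 and 4.21 in Ezh2 (-1.03 ± 0.202, adjusted p = 0.0271), and its call was lost in 7 alternatives, among them without each sample other than Ezh2 replicate 2. The start-site region of Hspa1a (chr17:34971894-34972805), whose sequence is shown above, had folds of 8.94, 9.44 and 8.95 in GFP and 6.58, 6.81 and 5.67 in Ezh2 (-0.86 ± 0.171, adjusted p = 0.0286). A region at a gene end close to Hspa1a and Hspa1l (chr17:34968057-34970052) was gained, with folds of 2.58, 2.63 and 3.05. Hspa1a and Hspa1b are near-identical copies, so reads may have been shared between them. Dnaja1 and Hsph1, which encode cochaperones of Hsp70, each had a weak gained region elsewhere.

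Genes of the injury response and of axon growth were examined next. DLK and JNK signalling relays axon injury to the nucleus and drives RGC death through the intrinsic apoptotic genes. Of 306 regions near these genes 13 were gained (4.25%) and 6 lost (1.96%), and 9 and 8 with lists of equal length. Mapk9 and Mapk10, which encode JNK kinases, moved in different ways, with a gained region in Mapk9 (5.86, 4.62 and 6.32) and 2 lost, 1 lower and 1 gained in Mapk10. The lower one (chr5:102993932-102994502) had folds of 5.18, 6.44 and 6.42 in GFP and 3.42, 3.69 and 3.49 in Ezh2 (-1.44 ± 0.185, adjusted p = 0.00943). Bcl2l1, which encodes the survival factor Bcl-xL, had a higher region (1.34) and Apaf1, a subunit of the apoptosome, a lower one (-1.27). Bcl2l1 lost its call without GFP replicate 2 or 3 or Ezh2 replicate 3, and Apaf1 without any 1 sample other than Ezh2 replicate 2. AP-1, ATF and immediate early factors, many of them induced by injury, had 5 gained and no lost regions of 68 (7.35%), and 3 and 0 with lists of equal length. The gained ones lay at Ddit3 (the stress factor CHOP, folds 5.37, 4.85 and 5.89), Batf, Batf3, Atf3 and Cebpg. The median of their 48 shared regions was -0.22, with 1 region higher, in Fosl2, and 1 lower, in Cebpg. Fosl2 lost its call in 7 of 11 alternatives and Cebpg in 7 of 9, both without GFP replicate 2 or 3 or any 1 Ezh2 replicate, and at equal length 1 region was higher and none lower.

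Cytokine signalling through Jak and Stat supports axon growth in RGCs. Of 238 regions near its genes 14 were gained (5.88%) and 3 lost (1.26%), and 7 and 4 with lists of equal length. Of the gained ones 4 lay in Il6ra, the interleukin 6 receptor, and 3 in Stat4, the strongest (chr1:52076308-52076886) with folds of 7.82, 5.77 and 5.67. Stat3, the mediator of injury cytokines, held 2 higher regions. The larger difference (chr11:100921259-100921894) came with folds of 4.47, 3.53 and 4.85 in GFP and 7.08, 7.95 and 5.89 in Ezh2 (1.23 ± 0.279, adjusted p = 0.0415), and this call was lost in 9 of 11 alternatives, each of those without 1 sample among them. Lifr, the receptor of leukemia inhibitory factor and a partner in the ciliary neurotrophic factor receptor, lost 2 regions, 1 of them with GFP folds of 5.90, 5.43 and 5.54. Osmr, the oncostatin M receptor, Clcf1, Stat2 and Stat5b each held a lower region, and the calls at Stat2 and Stat5b were lost in 5 of 10 and 7 of 12 alternatives, both without GFP replicate 2 or Ezh2 replicate 1 or 3.

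Regeneration-associated growth genes had 4 gained and 1 lost of 131 regions (2 and 1 with lists of equal length) and no call among 69 shared ones. The gained regions lay at Klf7, Atf3, Lin28a and Basp1, and the lost one at the end of Npy, a neuropeptide of injured neurons (5.42, 4.61 and 6.12 in GFP). Axon growth inhibitors and their receptors had 8 gained and 5 lost of 329, but 3 and 5 at equal length. Of their 156 shared regions 3 were higher and 5 lower. A region in Lingo1, a coreceptor for myelin inhibitors, had folds of 7.54, 6.78 and 6.12 in GFP and 4.40, 4.39 and 4.14 in Ezh2 (-1.15 ± 0.199, adjusted p = 0.0189). Its adjusted p passed 0.05 without GFP replicate 2 and without Ezh2 replicates 1 or 3. A region in Rock2, a kinase through which inhibitors collapse growth cones, had folds of 6.87, 6.39 and 7.24 in GFP and 4.15, 4.62 and 3.56 in Ezh2 (-1.33 ± 0.210, adjusted p = 0.0147, and 0.0543 without GFP replicate 3). Tnr, an inhibitory matrix protein, held 3 gained regions and 1 higher region (1.10), which was not called without any 1 sample other than Ezh2 replicate 1. Semaphorin, plexin, Slit, Robo and Netrin genes had 16 gained and 21 lost of 989, 12 and 27 at equal length, and 8 higher and 10 lower of 405. Ephrins and Eph receptors had 5 gained and 8 lost of 306, and 2 and 7 at equal length. At equal length all Ezh2 lists had fewer regions with a peak than all GFP lists in both (ratio of means 0.960 and 0.933). Among the genes whose function the study tested, Slc6a13 had 1 lost region of 7 (GFP folds 3.32, 4.65 and 3.37), Wfdc1 had 1 gained of 7 (2.86, 2.64 and 2.78), and Omg, Lingo3 and Neurog2 had neither. The gain at Wfdc1 was not called at equal list length or at a −log10 q of at least 5. The loss at Slc6a13 was not called at that −log10 q. None of the shared regions of these 5 genes was called. The start-site region of Lingo3 had folds of 4.40, 5.19 and 4.19 in GFP and 4.64, 4.22 and 4.42 in Ezh2 (-0.11 ± 0.206, adjusted p = 0.824).

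Genes of excitability and transmission had shares near or under the background in both directions in lists as deposited. Voltage-gated sodium, potassium and calcium channels had 15 gained (1.45%) and 18 lost (1.74%) of 1037 regions, and 8 higher and 6 lower of 471. Glutamate, GABA and glycine receptors had 13 gained and 13 lost of 777, and 4 higher and 8 lower of 328. Synaptic vesicle and release genes had 10 gained and 14 lost of 725, and 3 higher and 6 lower of 306. At equal length, lost regions outnumbered gained ones in all 3 lists (26 to 12 of 913, 15 to 9 of 686 and 17 to 10 of 627). Over all 153366 regions at equal length 4178 were lost and 4021 gained. The lost shares of the 3 lists were thus near or under the share over all regions, and their gained shares were under it. Near channel genes 639, 637 and 651 regions then had a peak in GFP and 627, 606 and 625 in Ezh2, without overlap (ratio of means 0.964). The groups overlapped in the receptor and synaptic lists. Kcnh1, a potassium channel, and Nrxn3, a presynaptic adhesion protein, held lower regions whose calls were kept in the 12 and 9 alternatives that tested them.

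Targets and members of Polycomb complexes were examined because Ezh2 acts through them. PRC2 subunit genes had 5 gained and 1 lost of 82 regions, and 4 and 2 of 73 with lists of equal length. Of the 5 gained ones 3 lay in Ezh2 itself and the others in Aebp2 and Jarid2, accessory subunits. The gain at Aebp2 was not called at equal length or at a −log10 q of at least 5. PRC1 subunit genes had 1 gained of 116 (3 of 109 at equal length), and 1 higher and 1 lower of 69. Hox genes, the classical targets, had 1 gained and no lost of 46 regions, and 1 higher and none lower of 20. The higher one, at Hoxb7 and Hoxb8 (chr11:96284121-96284957), had folds of 3.30, 3.53 and 4.22 in GFP and 7.43, 5.36 and 5.00 in Ezh2 (1.25 ± 0.269, adjusted p = 0.0355), and its call was lost in 8 of 11 alternatives. Developmental transcription factors had 5 gained and 1 lost of 186, and 3 higher and none lower of 95, but 1 gained, 3 lost, 2 higher and 1 lower with lists of equal length. Regions with a peak near them then numbered 121, 133 and 130 in GFP and 105, 117 and 120 in Ezh2, without overlap (ratio of means 0.891). The higher regions lay in Pax3, at En1 and at Foxc2, and the calls were lost in 8 of 12 alternatives at Pax3 and in 7 of 10 at En1, both without GFP replicate 2 or 3 or Ezh2 replicate 1 or 3. Writers and erasers of H3K27 and DNA methylation had no gained or lost region of 85 and 2 higher, near Dnmt1 and in Dnmt3a, and 1 lower, in Tet3. With lists of equal length none was gained, 2 were lost, 1 was higher and none lower. Dnmt1 kept its call in all 12 alternatives, Dnmt3a lost it in 8 of 12 (adjusted p = 0.0522 at equal list length) and Tet3 in 6 of 10, both without GFP replicate 1 or 2 or Ezh2 replicate 1 or 3. Genes of the BAF complex, which opposes Polycomb, had 9 gained and 1 lost of 297, and 3 higher and 3 lower of 155. At equal length 10 were gained, 3 lost, 2 higher and 3 lower. Wnt genes had 1 gained and 2 lost of 178, imprinted genes 4 and 2 of 137, clustered protocadherins 1 and 0 of 75, crystallins 2 and 1 of 70, cell cycle genes 4 and 2 of 131, and neurotrophin and neuropeptide genes 5 and 7 of 284. At most 4 shared regions were called in either direction in each of these 6 lists.

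Some windows held many gained regions. In windows of 1 Mb with any region (2404 windows), the median number gained was 1 and the 99th percentile 9. The highest number was 17 of 125 regions, from 37 to 38 Mb on chromosome 3, and 12 with lists of equal length. This window holds Il2 and Il21, T cell cytokines, Fgf2, a growth factor with survival effects on neurons, and Spry1, an inhibitor of growth factor signalling. The start-site region of Il21 (chr3:37232564-37233148) had folds of 5.02, 4.78 and 4.73 in the Ezh2 lists, and the region in Fgf2 (chr3:37370332-37370972) 3.66, 3.92 and 5.01. Of the 17 gained regions 8 lay in the stretch nearest to Gm5148, 96296 to 254133 bp from that gene. The window at 129 Mb on chromosome 6 had 13 gained of 101 regions (8 at equal length). It holds the natural killer receptor cluster, with gained regions near Klre1, Klrk1, Klri2, Klrh1 and Klra6, 3 near the activation marker Cd69 and others near C-type lectins. The windows at 127 Mb on chromosome 1 (Mgat5, a glycosyltransferase, and Tmem163, a zinc transporter) and at 83 Mb on chromosome 17 (Mta3, a subunit of the NuRD complex, and Eml4, a microtubule-binding protein) also had 13, and 8 each at equal length.

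Lost regions, of which there were fewer, had a 99th percentile of 6 per window. The highest number was 9 of 100 regions at 35 Mb on chromosome 8, where the lower region near Cldn23 also lies, and 8 at equal length. Windows at 82 Mb on chromosome 18 (Zfp516, Galr1 and Mbp) and at 23 Mb on chromosome 19 (Mamdc2 and Apba1) had 8 each, and 7 and 8 at equal length. For shared regions, 7 higher ones lay at 59 Mb on chromosome 4, at 126 Mb on chromosome 7 and at 19 Mb on chromosome 10, where 4 were nearest to Tnfaip3, an inhibitor of NF-kappaB. The chromosome 7 window also held 6 lower regions, as did those at 85 Mb on chromosome 12, with 1 each nearest to Fos and Batf, and at 60 Mb on chromosome 14. At equal length the chromosome 7 window had 4 of each.

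**Figure D5:**
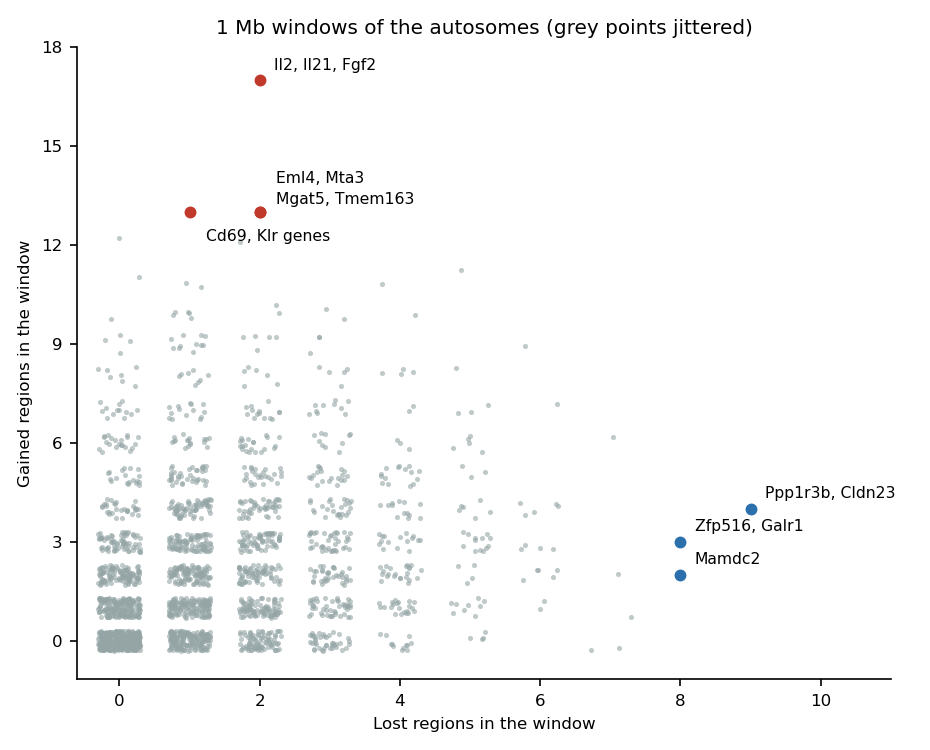
Number of gained (y axis) and lost (x axis) regions in each 1 Mb window of the autosomes, with jittered grey points. Red points mark the windows with most gained and blue points those with most lost regions. The window with Il2, Il21 and Fgf2 holds 17 gained and 2 lost regions.

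By chromosome, between 2.37% (chromosome 4) and 3.51% (chromosome 12) of regions were gained and between 1.57% (chromosome 16) and 2.07% (chromosome 8) lost. The share of all peaks on a chromosome did not overlap between groups for 4 of 19 chromosomes. Chromosome 4 held 6.51%, 6.52% and 6.49% of peaks in GFP and 6.39%, 6.37% and 6.34% in Ezh2. Chromosome 9 was lower too (5.68% ± 0.00840 and 5.63% ± 0.00767, SD, n = 3 each), and chromosomes 10 (5.28% and 5.36%) and 16 (3.65% and 3.72%) were higher. Each gave the smallest two-sided exact permutation p possible, 0.1, which was 0.475 after Benjamini-Hochberg adjustment over 19 chromosomes. The share of peaks at gene ends was 19% ± 0.905 in GFP and 18.5% ± 0.438 in Ezh2, and the groups overlapped.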

How the data were processed

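ATAC-Seq was performed on sorted RGCs. Per the labels, the authors' processing notes name cutadapt, Bowtie2, SAMtools, Picard, MACS2 and deepTools, without versions, and build GRCm38. Peak calling by the authors was done sample by sample, with 1 list deposited for each. The deposited fold (a ratio of summit pileup to local background) ranked peaks within a list. The −log10 p-value, as deposited by the authors, and the −log10 q-value in the deposited lists served in alternatives. The deposited score was not used. Depth and the threshold of peak calling are not given in the sources used here.

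Peaks on chromosomes 1 to 19 were merged where they shared at least 1 bp. The highest fold of a list stood for a region. Shared regions were compared with limma 3.58.1 (R 4.3.3) on normal scores of ranks, with Benjamini-Hochberg adjustment. Single values were compared with two-sided exact permutation tests. On simulated data, 74% of regions shifted by 2 score units and 0% of those shifted by 1 unit were recovered (200 of 79065 regions shifted each time). The Benjamini-Hochberg cut depends on how many regions differ, and 4110 were called in the data. These shares therefore do not give the sensitivity of the fit to the data. Nothing in the labels says that samples came from separate animals, so p-values measure the spread between these samples. Genes and promoters came from RefSeq tables of GRCm38. Promoters were found for 79.6% of 20665 coding genes, and 964 of 983 listed genes were placed on autosomes. Exons and UTRs were not analysed here.

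Named were Ezh2, the 5 strongest regions per class at gene ends and the 3 strongest anywhere, up to 2 genes per list, class and direction, genes the study tested, and the 3 fullest 1 Mb windows per class (4 where tied). A few regions that the rule named are not reported here. Further called members of lists were named after their values were seen, and alternatives for single regions were run only for those the rule named. Of the 12 alternatives for a shared region, those whose fit did not include it were left out of its count. Such a region was not counted as having lost its call there. The members, gene lists and tests were chosen with earlier results of these data known. Alternatives were ranking by −log10 p, percentiles among all peaks, regions with 1 peak per list, a replicate block, −log10 q of at least 5, cover of 0.5, equal lengths, gene ends within 3 kb, and leaving out each sample. Equal lengths for gene lists and windows were added after seeing the data.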

Additional observations from a re-analysis of the deposited data

How the results depend on the processing

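Counts of gained and lost regions kept within 1.5 times of the main value with a cover of 0.5 (6501 gained, 4152 lost), a −log10 q of at least 5 (4039 and 2762) and equal lengths (4021 and 4178). Calls turned over more than counts did. Of the gained regions 39.4% and of the lost ones 38.4% were also called at a −log10 q of at least 5, and 56.9% and 79.8% at equal length. Leaving out 1 sample gave from 5830 to 9430 gained regions, with 9430 without GFP replicate 3, 8098 without Ezh2 replicate 2 and 7794 without Ezh2 replicate 1. It gave from 3767 to 5324 lost regions, with 5324 without GFP replicate 1 and 4906 without GFP replicate 2. Fewer lists then had to meet the rule.

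Percentiles among all peaks left 1074 regions higher and 858 lower. The replicate block left 968 higher and 1226 lower. The replicate numbers did not pair the samples, since deviations of same-numbered samples correlated by -0.0009, 0.033 and 0.046. Leaving out 1 sample gave from 563 to 906 higher regions, the lowest without Ezh2 replicate 3, and from 577 to 1474 lower ones, the lowest without GFP replicate 2. All 6 samples moved the higher count by over 1.5 times, with 836, 613 and 850 without GFP replicates 1, 2 and 3 and 717, 906 and 563 without the Ezh2 replicates. The lower counts were 919, 577 and 634 and 1144, 1474 and 946. Fewer samples entered these fits.

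The difference in peaks per list was 8973 and ranged from 5135 to 15286.5 when 1 sample was left out, with 15286.5 without GFP replicate 3. The difference in the share at gene ends (-0.526 percentage points) ranged from -1.0387 to -0.1825 and was -0.1825 without GFP replicate 2. Of regions named in the text or by the rule, 40 of 77 gained, 23 of 49 lost, 10 of 49 higher and 10 of 55 lower were called under each of their alternatives, and none reversed its direction. For gained and lost regions, leaving out 1 sample only loosens the rule, so nearly all had to keep their calls there. Their counts therefore cannot be compared with those of higher and lower regions. With no read counts, depth limits presence and absence to an unknown degree.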

Other observations

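Peaks off the autosomes were left out of the comparison. On chromosome X the GFP lists held 1897, 1855 and 2275 peaks and the Ezh2 lists 2065, 2119 and 2299, and the groups overlapped.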
